A study of Mus musculus with 200 samples.

Results

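Expression of 8 listed enzymes of cholesterol synthesis was examined in single mouse embryos at embryonic day 11.5. The genes were picked by symbol, not by their values: 7 of the 8 had a row among the 22033 genes of the count tables (Mvd, Idi1, Fdps, Fdft1, Sqle, Lss and Dhcr7), and the other was not analysed here. A mean of at least 5 RPM (a gene's reads scaled to the reads counted in its library) was reached by 6 of the 7 in each generation, and Idi1 fell below it in both. Whole embryos, freed of membranes and placenta, were sequenced from the 3′ ends of their polyadenylated RNA (3SEQ), so a value is an average over every tissue of the embryo, and fewer cells of a type cannot be told apart from less RNA per cell.

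The F1 generation was made between 2 inbred strains, C57BL/6J (B6) and the wild-derived CAST/EiJ (Cast), and held 8 embryos of B6 mothers and Cast fathers (B6xCast, litters 3 and 5) and 8 of Cast mothers and B6 fathers (CastxB6, litters 1 and 2). Each F1 embryo carried a B6 and a Cast allele of every autosomal gene. The N2 generation held 154 embryos with a labelled mother and a deposited genotype, 89 of B6 mothers and F1 fathers (17 litters) and 65 of F1 mothers and B6 fathers (12 litters). Mitochondria were of B6 origin throughout the N2, and an N2 embryo was homozygous B6 or heterozygous at each autosomal gene. Somites, the paired blocks of the trunk that are added as the embryo ages, had been counted in 147 of the N2 embryos (42 to 57) and in 13 of the F1 embryos (41 to 63). Litter and stage were bound together in the F1 embryos: CastxB6 litter 1 had 41 to 43 somites, CastxB6 litter 2 had 46 to 48, B6xCast litter 5 had 48 to 50, and the 2 counted embryos of B6xCast litter 3 had 58 and 63.

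Cholesterol is built from acetyl-CoA. In the mevalonate part of the pathway Mvd (mevalonate diphosphate decarboxylase) makes isopentenyl diphosphate, Idi1 turns this into its isomer, and Fdps (farnesyl diphosphate synthase) joins these units into farnesyl diphosphate, from which ubiquinone, dolichol and prenyl groups also branch off. Fdft1 (squalene synthase) makes the committed step to sterols, Sqle (squalene epoxidase) adds the oxygen and is a rate-limiting step, Lss closes the rings to lanosterol, and Dhcr7 reduces 7-dehydrocholesterol to cholesterol. In most cells these genes are switched on together by the transcription factor SREBP2, the product of Srebf2, when sterols run low. In the embryo, cholesterol is needed for new membranes and is attached to hedgehog signals, and loss of DHCR7 in people causes the Smith-Lemli-Opitz syndrome.

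The promoters of 4 of the genes are shown, because Mvd and Fdft1 were the most similar pair across embryos, Lss passed the test against somite number and Sqle passed the test between F1 crosses. Each is the 250 bases upstream of the start of the gene's longest protein-coding transcript, read 5′ to 3′ along the gene from the mm9 genome. The intervals are chr8:124967323-124967572 on the minus strand for Mvd, chr14:63796631-63796880 on the minus strand for Fdft1, chr15:59146386-59146635 on the plus strand for Sqle and chr10:75994102-75994351 on the plus strand for Lss. Capitals mark the letters CCAAT on either strand (so also ATTGG), the box bound by NF-Y, a factor that works beside SREBP2.
Mvd: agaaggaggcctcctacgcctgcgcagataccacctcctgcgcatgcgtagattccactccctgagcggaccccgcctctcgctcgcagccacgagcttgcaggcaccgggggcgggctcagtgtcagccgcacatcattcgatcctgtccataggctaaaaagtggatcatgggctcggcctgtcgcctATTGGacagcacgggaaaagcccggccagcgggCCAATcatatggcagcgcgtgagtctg
Fdft1: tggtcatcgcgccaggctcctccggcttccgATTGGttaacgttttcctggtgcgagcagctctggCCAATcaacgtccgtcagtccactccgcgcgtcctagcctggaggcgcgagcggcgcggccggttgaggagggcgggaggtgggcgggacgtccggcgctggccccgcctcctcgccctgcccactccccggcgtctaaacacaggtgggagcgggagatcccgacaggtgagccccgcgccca
Sqle: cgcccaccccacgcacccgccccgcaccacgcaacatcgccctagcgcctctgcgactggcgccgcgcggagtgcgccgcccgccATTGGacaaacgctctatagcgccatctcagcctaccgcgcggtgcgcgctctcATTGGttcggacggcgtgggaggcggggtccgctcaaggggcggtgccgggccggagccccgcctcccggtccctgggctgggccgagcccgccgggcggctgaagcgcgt
Lss: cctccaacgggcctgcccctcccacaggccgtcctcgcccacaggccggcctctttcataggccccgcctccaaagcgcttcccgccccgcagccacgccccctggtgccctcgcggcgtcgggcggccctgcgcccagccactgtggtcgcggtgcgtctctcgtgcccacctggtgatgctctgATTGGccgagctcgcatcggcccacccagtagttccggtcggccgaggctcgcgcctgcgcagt
Mvd, Fdft1 and Sqle each held CCAAT at 2 places and Lss at 1. Over windows that ran on to 50 bases past the start, CCAAT was found in 6 of the 7 genes (not in Dhcr7), in 18 of 29 other genes of the pathway lists (62.1%) and in 3715 of 9751 expressed genes (38.1%). The letters TCACNCCAC, a form of the sterol regulatory element, searched on both strands, were in 0 of the 7 windows, 0 of the 29 and 107 of the 9751 (1.1%).

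The genes lie on different chromosomes of mm9 and share no locus: Mvd at chr8:124957496-124967322, Idi1 at chr13:8884852-8891641, Fdps at chr3:88897514-88905881, Fdft1 at chr14:63763990-63796630, Sqle at chr15:59146632-59162747, Lss at chr10:75994333-76019883 and Dhcr7 at chr7:151009050-151034315. The submitters discarded a read whose second-best placement was within an edit distance of 3 of its best. Of 20 read-length stretches of the last 500 bases of the transcript, all 20 had another placement that close for Idi1 and for Fdps, and none did for Mvd, Fdft1, Sqle, Lss or Dhcr7. The counts of Idi1 and Fdps are therefore uncertain, and their levels cannot be set against those of the other enzymes.

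Depth was 15703888 to 38234229 reads in the F1 embryos and 245220 to 5370322 (median 2297773) in the N2 embryos. A count of 3 reads, the limit that a count of 0 allows, was worth 0.559 to 12.2 RPM in an N2 embryo (median 1.31). The N2 libraries were sequenced in 14 lanes, A to G on the first flowcell and H to N on the second. Each lane held embryos of one kind of mother, F1 mothers in lanes C, D, E, G and L and B6 mothers elsewhere, except that lane M held 8 embryos of F1 mothers and 1 of a B6 mother. Lanes J to N stood apart from lanes A to I, a split noticed in these data that follows neither mother nor flowcell: in 27.6% of the 10007 genes tested, all 5 of their lane means lay above all 9 others. Results that rest on these lanes are given with and without them below.

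Sqle showed this split, and with it Idi1. Sqle had lane means of 2.219 RPM (lane F) to 4.738 RPM (lane C) in lanes A to I and 25.75 RPM (lane L) to 34.73 RPM (lane K) in lanes J to N. Over embryos, Sqle was 3.438 ± 2.12 RPM (SD, n = 98; lowest 0, median 3.076, highest 13.38) in lanes A to I and 29.57 ± 22.54 RPM (n = 56; lowest 5.869, median 24.28, highest 114.9) in lanes J to N. The lane means did not overlap, although a few embryos of lanes A to I exceeded the lowest of lanes J to N. Idi1 was at 0 reads in 85 of the 98 embryos of lanes A to I and in 10 of the 56 of lanes J to N, and its lane means were 0 to 0.3721 RPM against 0.4855 to 3.989 RPM.

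The lane means of the other enzymes overlapped between these sets of lanes. Mvd ranged from 150.7 to 287.9 RPM over lanes A to I and from 131.6 to 248.1 RPM over lanes J to N. Fdps ranged from 23.94 to 77.14 and from 29.53 to 115.5 RPM, and Fdft1 from 120.1 to 164.4 and from 82.6 to 132.4 RPM. Dhcr7 ranged from 56.73 to 113.5 and from 53.65 to 66.76 RPM. Lss ranged from 26 to 39.28 RPM over lanes A to I and from 7.247 to 40.3 RPM over lanes J to N, where its low end was a single lane. In lane J, which held 11 embryos of 4 litters, Lss was 7.247 ± 4.007 RPM (lowest 0, highest 12.75), against 33.55 ± 9.49 RPM in the 143 embryos of the other lanes.

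**Figure D1:**
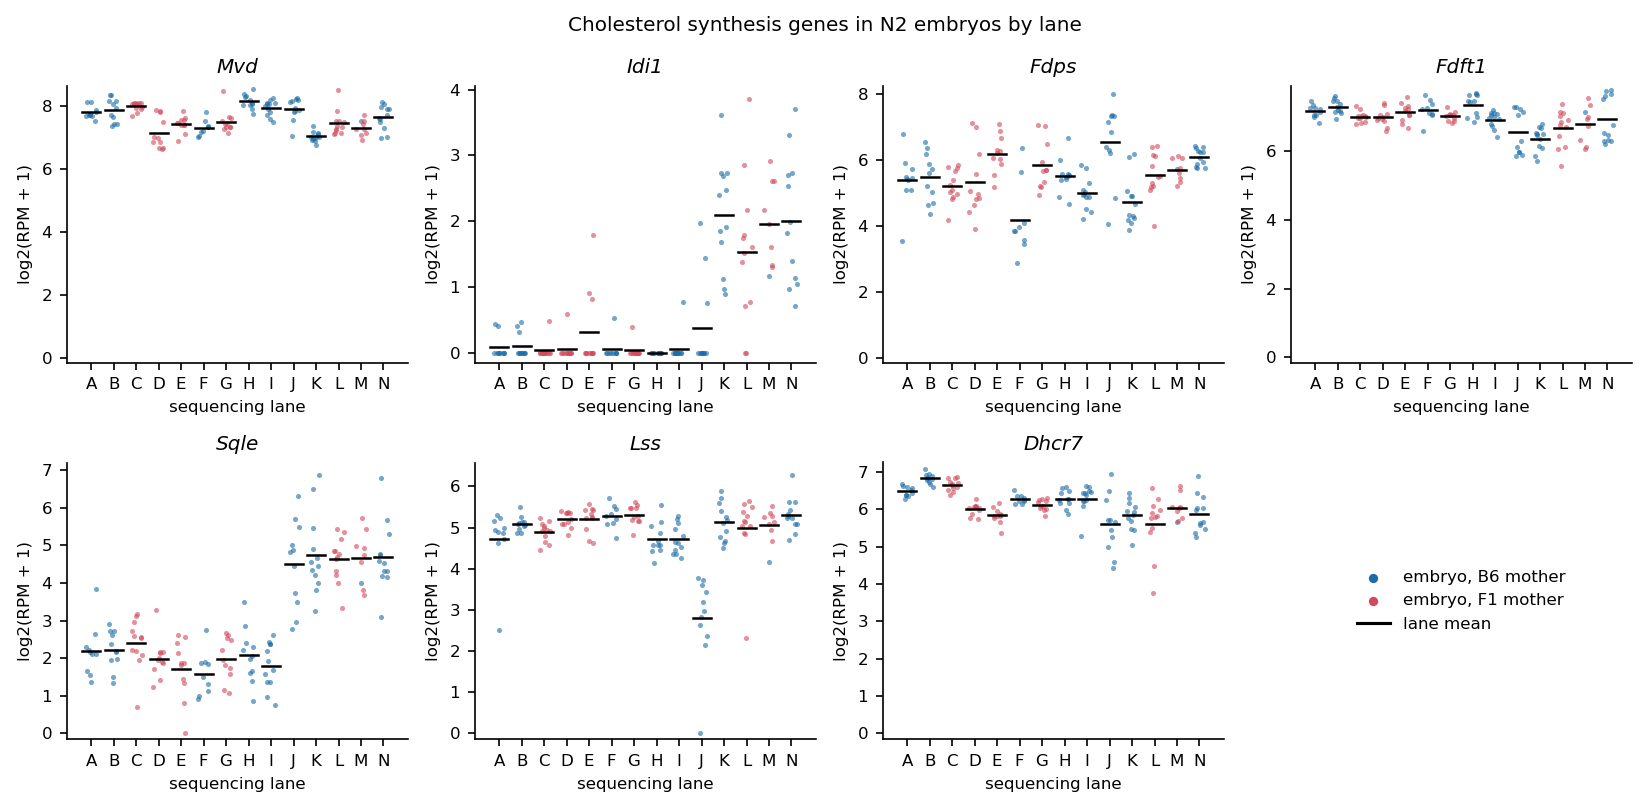
Level of each measured enzyme, as log2(RPM + 1), in every N2 embryo (points) by sequencing lane A to N, blue for B6 and red for F1 mothers, with lane means of the log values as black lines. In RPM, Sqle lay between 2.219 and 4.738 RPM as a lane mean in lanes A to I and between 25.75 and 34.73 RPM in lanes J to N, and Lss was lowest in lane J at 7.247 RPM.

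Base composition of the 3′ end moved with the same split. Across 9751 genes (which are not independent replicates) the GC content of the last 500 bases and the difference in mean log2(RPM + 1) between lanes J to N and lanes A to I had a Spearman's rho of -0.61, with a median difference of 2.02 for genes under 35% GC and -0.23 for genes of 55% GC or more. Sqle, with 42.2% GC, differed by 2.65 on this log2 scale, above 92.4% of genes, whereas the median of the 1867 genes of 40 to 45% GC was 0.72. Lss, at 41.2% GC, differed by -0.36, Fdft1 (51%) by -0.45, Dhcr7 (48.4%) by -0.51, Mvd (58.8%) by -0.21 and Fdps (52.8%) by 0.38. The part of base composition in these differences was not tested. Of the 37 other pathway genes, 11 also had every lane mean of lanes J to N above those of lanes A to I, among them the late sterol enzymes Lbr, Sc4mol, Nsdhl, Hsd17b7 and Sc5d (Lbr 26.42 to 59.18 against 4.78 to 7.067 RPM). The phosphomevalonate kinase Pmvk, the SREBP escort Scap and the lysosomal sterol carrier Npc2, 3 in all, had them all below (Scap 31.94 to 93.33 against 133.8 to 188 RPM). Among all 10007 genes, 27.6% had them all above, and 36% all above or all below. The 37 genes, and the 11 among them, include genes with a mean under 5 RPM, which the 10007 leave out.

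Lanes took 57.1% of the variance of ranks over the N2 embryos in Mvd, 37.7% in Fdps, 34% in Fdft1, 72.1% in Sqle, 42% in Lss and 57.6% in Dhcr7, beside a median of 59.7% over all genes tested. The mother's genotype took 0.228% (Sqle) to 7.66% (Lss). Litter means of Sqle ran from 1.894 RPM (litter 1 of B6 mothers, lane I) to 59.68 RPM (litter 7 of B6 mothers, lane K), and those of Lss from 4.998 RPM (litter 2 of B6 mothers, lane J) to 46.71 RPM (litter 7). Fdps litters ran from 16.86 RPM (litter 9 of B6 mothers, lane K) to 139.7 RPM (litter 2 of B6 mothers, lane J). Within a litter Fdps also varied widely, as in litter 3 of B6 mothers, where 11 embryos in lanes F, I and J spanned 13.38 to 161.3 RPM.

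The comparison of N2 embryos by mother asks whether a gene's level depends on the mother's genome, beyond what the embryo inherits. None of the 6 enzymes tested passed the test of the study's kind (Mann-Whitney U test, Bonferroni-adjusted p under 0.01), which called 4.28% of 9733 autosomal genes higher and 0.75% lower under F1 mothers. At an unadjusted p under 0.05 there were 2 of the 6, beside 40.2% of the 9733 genes: Lss, higher under F1 mothers, and Mvd, lower. With a Benjamini-Hochberg adjusted p under 0.05, edgeR and DESeq2 called both, as they did 2468 and 2716 of the 9733 genes.

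Lss was 29.28 ± 13.01 RPM under B6 mothers (n = 89; lowest 0, median 30.11, highest 76.17) and 34.95 ± 7.815 RPM under F1 mothers (n = 65; 3.947, 34.97, 49.39). The difference was 0.40 ± 0.11 (SE) in log2(RPM + 1), with an adjusted p of 1 after Bonferroni and of 0.00373 after Benjamini-Hochberg (Mann-Whitney U test over all genes). The ranges overlapped, and most of the lowest values lay in lane J, all of B6 mothers: without lane J, an alternative chosen after seeing the data, the difference was 0.13 ± 0.08 (unadjusted p of 0.0174 in the same test). Over litter means it was 0.57 ± 0.25 with a permutation p of 0.0524, and 0.14 ± 0.11 (p of 0.219) without lane J. Mvd was 219.2 ± 63.76 RPM under B6 mothers (107.7, 215.8, 374.5) and 187.5 ± 57.13 RPM under F1 mothers (99.25, 175.5, 367). The difference of -0.22 ± 0.07 had a Benjamini-Hochberg adjusted p of 0.00776 in the same test, and over litter means it was -0.13 ± 0.13 with a permutation p of 0.343.

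The other 5 enzymes overlapped between mothers. Fdft1 was 129.6 ± 42.1 RPM under B6 mothers and 123.5 ± 27.6 RPM under F1 mothers, Dhcr7 75.52 ± 24.67 and 69.01 ± 20.57 RPM, and Fdps 52 ± 40.17 and 55.26 ± 30.41 RPM. Sqle was 14.6 ± 21.86 RPM (median 5.144) and 10.67 ± 12.56 RPM (median 4.777), the high values of both groups coming from lanes J to N. Idi1 was at 0 in 54 of 89 embryos of B6 mothers and in 41 of 65 of F1 mothers. On the first flowcell alone Dhcr7 had a difference of -0.38 ± 0.07 in log2(RPM + 1) (unadjusted p of 8.15e-06, not past the Bonferroni threshold), and Fdft1 had a difference of -0.19 ± 0.05 (0.000262). On the second alone they had -0.17 ± 0.16 and -0.12 ± 0.14, and Sqle had 1.09 ± 0.25 (unadjusted p of 0.00276, Mann-Whitney U test). In lanes A to I the differences were -0.27 ± 0.07 in Dhcr7, -0.15 ± 0.05 in Fdft1, 0.50 ± 0.17 in Fdps, 0.05 ± 0.13 in Sqle, 0.25 ± 0.08 in Lss and -0.31 ± 0.08 in Mvd. In lanes J to N they were 0.03 ± 0.18, 0.07 ± 0.15, -0.15 ± 0.22, 0.04 ± 0.22, 0.60 ± 0.27 and -0.12 ± 0.11, in the same order. On the first and second flowcell and in lanes A to I and J to N, 0 of the 6 were called. Of the 9733 genes 212, 24, 1303 and 1 were, in that order. At an unadjusted p under 0.05 there were 3, 3, 5 and 0 of the 6, beside 52.1%, 61.7%, 58.3% and 18.9% of all genes. Over litter means, the permutation p of the 5 enzymes other than Lss and Mvd ran from 0.302 (Sqle) to 0.963 (Fdft1). Since mothers share no lane but M, mother and lane cannot be told apart for most embryos: with lanes as a random block (limma voom) or as the unit, 0 of the 6 passed, and only 1 of the 9733 genes did with the block and 0 with lane means. Of the other pathway genes, 1 of 27 passed, Mbtps1, the site-1 protease that releases SREBP, higher under F1 mothers by 1.45 ± 0.20 (Mann-Whitney U test, Bonferroni-adjusted p of 2.36e-05). It was not called over litter means, over lane means, with lanes as a block or on either flowcell alone, and its lane means ran from 12.37 to 189.9 RPM within lanes A to I.

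Whether the enzymes change as the embryo ages was read from the somite number of the N2 embryos. Lss fell with somite number and the other 5 tested did not pass, in a test (Spearman's correlation, Benjamini-Hochberg adjusted p under 0.05) that called 14.1% of 10007 genes as rising and 7.97% as falling. Lss was 40.41 ± 12.27 RPM in the 21 embryos of at most 45 somites (23.6, 39.05, 76.17), 30.16 ± 10.52 RPM in the 112 embryos of 46 to 52 somites (0, 31.97, 49.39) and 29.56 ± 13.84 RPM in the 14 embryos of at least 53 (6.838, 32.96, 48.51). The step lay between the youngest embryos and the rest, with overlapping ranges. Spearman's rho was -0.35 (adjusted p of 0.000287) and Pearson's r was -0.34, with permutation p of 2e-05 and 4e-05, and without the 2 embryos farthest from the median stage they were -0.34 and -0.33.

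Stage and lane were also tied, since lanes N, F, K and E held the youngest embryos (median 45 to 46 somites). Within lanes A to I, Lss had a rho of -0.30 (adjusted p of 0.0206) and within lanes J to N of -0.42 (0.0253), both alternatives chosen after seeing the data, and without lane J it was -0.33 (0.00102). On the first flowcell alone Lss had -0.26 (0.12) and was not called while Fdft1 was (-0.42, 0.00482), and on the second alone Lss had -0.39 (0.00465). With lane taken out of the ranks rho was -0.21 (adjusted p of 0.104) and over litter means -0.35 (0.465), and it was below 0 in 8 of 14 single lanes. Under B6 mothers rho was -0.52 (adjusted p of 7.34e-06) and under F1 mothers -0.30 (0.0712).

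For Mvd rho was 0.13 (adjusted p of 0.259), for Fdft1 -0.15 (0.175), for Fdps -0.10 (0.387), for Dhcr7 0.07 (0.596) and for Sqle -0.003 (0.984). Mvd was 187 ± 48.68 RPM at the youngest stage and 231 ± 54.41 RPM at the oldest, a difference within the spread between embryos. Among embryos of F1 mothers alone, Sqle had a rho of 0.36 (adjusted p of 0.0265), where the embryos of lanes L and M, of 47 to 53 somites, were the high ones. Idi1, under the minimum level, had a rho of -0.27, and 13 of the 14 oldest embryos were at 0. Lane was not taken out of this value, and Idi1 was at 0 in most embryos of lanes A to I (85 of 98) and of lane J (8 of 11). Within single lanes its rho was below 0 in 9 of 13. Among the other pathway genes, the oxysterol receptor Nr1h2 rose with somite number (rho of 0.22, adjusted p of 0.0427). It was not called with lane taken out of the ranks, over litter means, with TMM scaling, by edgeR or on the first flowcell alone. On the second flowcell alone and without lane J, 2 of the 3 tested genes of export and storage were called as rising. Of all 10007 genes, 3920 and 3001 were called there, rising or falling. The summed level of the 6 fetal liver markers had a rho of 0.56 with somite number, and its part in these results was not tested.

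Tests of whether the slope on somite number differed between mothers (edgeR, interaction) called 46% of all genes and 2 of the 6 enzymes: Sqle, by 0.36 ± 0.10 in log2 per somite more under F1 mothers (adjusted p of 0.004), and Fdps, by -0.16 ± 0.06 (0.0143). The test of whether the difference between mothers depended on the flowcell (edgeR) called 25.9% of genes and 2 of the 6, Mvd by -0.48 ± 0.17 (0.0299) and Fdps by -0.91 ± 0.32 (0.029). With lanes as a random block (limma voom) neither test called any of the 6 genes, or any gene at all, while 652 and 648 of all genes had an unadjusted p under 0.05.

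The F1 embryos, sequenced more deeply, allow the reciprocal crosses to be compared. Sqle was higher in CastxB6 than in B6xCast embryos and was the only one of the 6 enzymes to pass (edgeR, Benjamini-Hochberg adjusted p under 0.05), in a comparison in which 15.2% of 9728 genes were higher and 13.7% lower in CastxB6. In B6xCast embryos Sqle was 11.7, 12.81 and 12.18 RPM in litter 3 and 17.22, 13.27, 12.61, 10.04 and 14.16 RPM in litter 5. In CastxB6 embryos it was 27.33, 16.59, 16.86 and 14.96 RPM in litter 1 and 18.51, 20, 17.53 and 15.7 RPM in litter 2. The highest B6xCast embryo exceeded 4 of the 8 CastxB6 embryos, so the groups overlapped. The means were 13 ± 2.088 and 18.44 ± 3.926 RPM (n = 8 each) and the log2 difference was 0.56 ± 0.14 (edgeR, adjusted p of 0.0085). Between the litters closest in stage (litters 5 and 2) it was 0.37 ± 0.14 (0.0898), without B6xCast litter 3 it was 0.47 ± 0.17 (0.0603), and with somite number as a covariate it was 0.26 ± 0.15 (0.33), all by edgeR. Litters 5 and 2 also differed in sequencing machine, as given for Fdps below.

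Dhcr7 came closest among the rest. It was 117.3, 150.6, 167.7 and 148.6 RPM in CastxB6 litter 1 and 115.3, 118.2, 101.6 and 84.2 RPM in CastxB6 litter 2. In B6xCast it was 105.8, 105.1, 108.1, 104.7 and 115.1 RPM in litter 5 and 91.8, 90.47 and 93.7 RPM in litter 3. The 4 embryos of CastxB6 litter 1 lay above every B6xCast embryo, and those of litter 2 lay above, within and below the B6xCast range. The difference was 0.34 ± 0.13 (edgeR, adjusted p of 0.053), 0.59 ± 0.10 (0.000666) without CastxB6 litter 2 and 0.04 ± 0.11 (0.82) without litter 1. Over the 13 F1 embryos with a count, Dhcr7 and somite number were correlated at a Pearson's r of -0.73 (permutation p of 0.00681) and a Spearman's rho of -0.65 (0.0175), and without the 2 farthest embryos r was -0.86. For Sqle r was -0.56 (permutation p of 0.0427) and rho -0.61 (0.031), and r was -0.38 without the 2 farthest. These are 2 of 7 such correlations, in 147 N2 embryos r was 0.04 for Dhcr7 and -0.09 for Sqle.

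Fdps varied widely between litters. It was 12.19, 10.45, 7.688 and 9.703 RPM in CastxB6 litter 1 but 53.19, 48.83, 41.77 and 67.92 RPM in CastxB6 litter 2, with no overlap. B6xCast embryos lay between these litters or at the level of litter 1, at 24.28, 10.1, 15.73, 18.98 and 26.02 RPM (litter 5) and 30.95, 19.85 and 29.41 RPM (litter 3). The difference between crosses was 0.55 ± 0.43 (edgeR, adjusted p of 0.336), became 1.30 ± 0.23 (0.00407) without CastxB6 litter 1 and turned to -1.03 ± 0.26 (0.00621) without CastxB6 litter 2. Between litters 5 and 2 it was 1.44 ± 0.26 (edgeR, adjusted p of 0.00966). Litter 2 was the litter read in 2 runs of the HiSeq, while the other 3 were read on the GAIIx and then the HiSeq, so litter, stage and machine cannot be told apart here. Mvd was 161.5 ± 30.48 RPM in B6xCast and 167.3 ± 27.67 RPM in CastxB6 (0.08 ± 0.13, edgeR adjusted p of 0.67), Fdft1 112.7 ± 14.18 and 116.7 ± 14.38 RPM (0.09 ± 0.10, 0.542) and Lss 38.46 ± 4.082 and 39.05 ± 4.568 RPM (0.06 ± 0.08, 0.57). Idi1 had 0 to 7 reads in an F1 embryo, at most 0.2652 RPM.

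**Figure D2:**
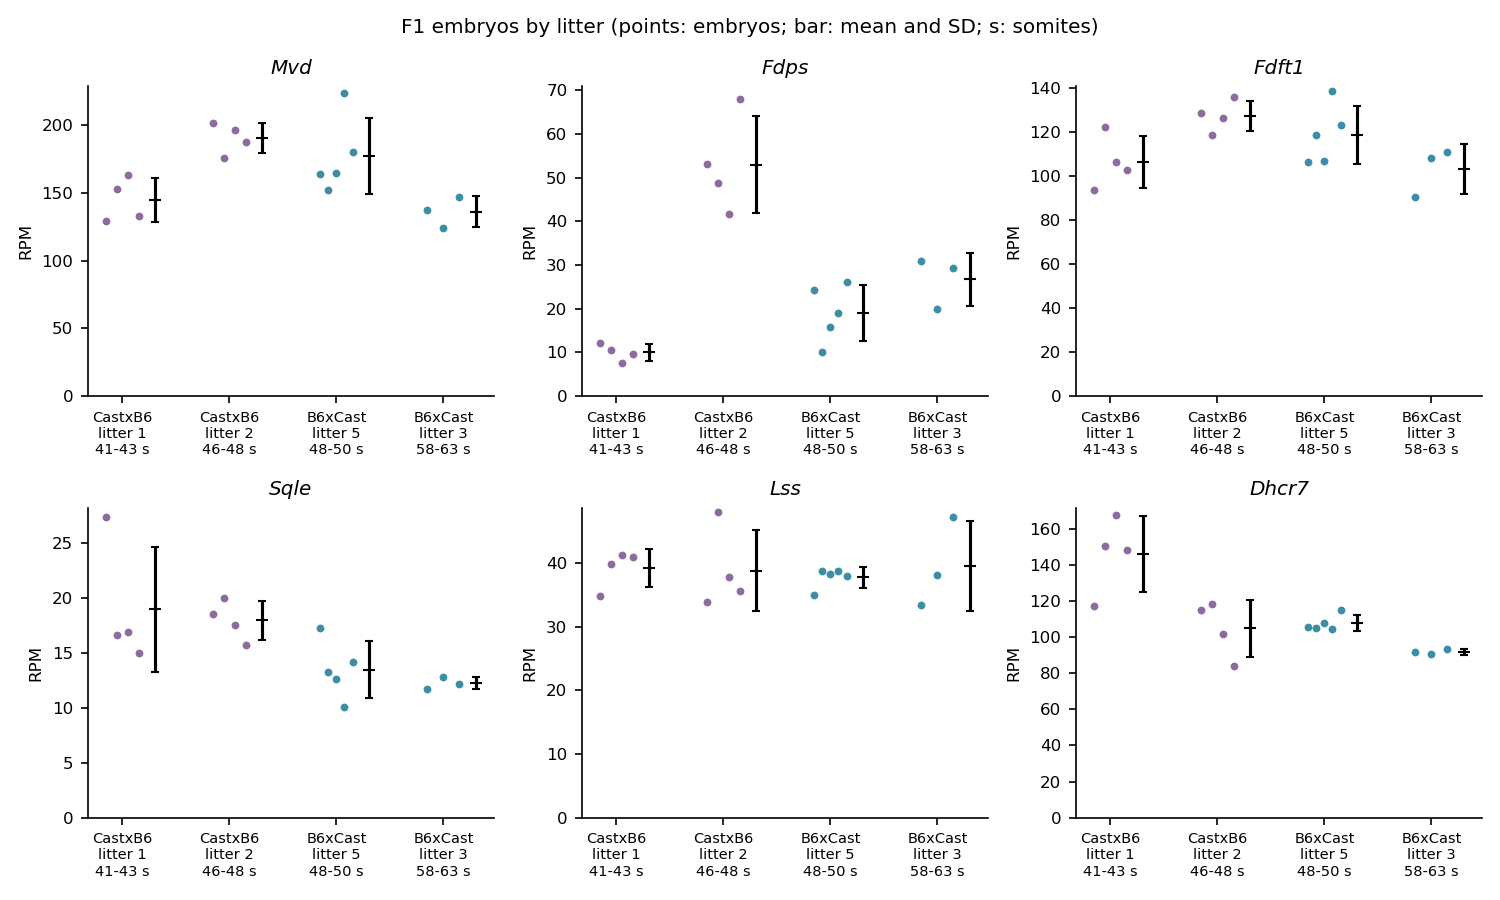
RPM in the 16 F1 embryos (points) of the 6 enzymes above the minimum level, by litter and its somite range, with the mean and SD of each litter as a black bar. CastxB6 litters 1 and 2 held Fdps at 7.688 to 12.19 and at 41.77 to 67.92 RPM, and Dhcr7 reached 167.7 RPM in CastxB6 litter 1.

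Of the 12 other synthesis enzymes tested, 6 were higher and 0 lower in CastxB6 embryos (edgeR), with a median log2 difference of 0.35, against 0.21 for the 6 listed enzymes and 0.03 for all genes. Among them were Nsdhl (1.06 ± 0.19, adjusted p of 0.00117) and Sc5d (0.53 ± 0.11, 0.00226), which act after lanosterol. Between litters 5 and 2, which also differed in sequencing machine, the count was 3 higher and 0 lower. With somite number as covariate it was 2 higher and 0 lower, with a median of 0.20 in each. Of all 9728 genes, 1290 and 234 were called in these alternatives, higher or lower, beside 2814 in the main test. Of the 7 uptake genes 3 were higher and 1 lower, the higher ones including the ubiquitin ligase Mylip (0.96 ± 0.20, 0.00277), but 1 and 0 were higher in those alternatives and 0 lower in both. Of the genes of export and storage, Soat1, which stores sterol as esters, was higher (0.92 ± 0.19, edgeR adjusted p of 0.0024) and the oxysterol receptor Nr1h3 lower (-0.52 ± 0.11, 0.00381). Between litters 5 and 2, 0 of the 3 tested genes of export and storage were called. None of the 4 genes of synthesis control passed (0 of 4 by edgeR). The crosses also differed in their stage and tissue makeup: the summed level of the 6 fetal liver markers had litter medians of 593 RPM (CastxB6 litter 1), 1133 RPM (CastxB6 litter 2), 1122 RPM (B6xCast litter 5) and 2954 RPM (B6xCast litter 3), and the part of this in the differences was not tested. The 4 placenta markers summed to at most 1.71 RPM in any F1 embryo, and those of steroid-making cells to at most 3.93 RPM.

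Reads that cover a base differing between the strains were counted by the submitters as votes for the B6 or Cast allele, and the share of B6 votes is the B6 allele fraction. The minimum of 20 votes per cross of either generation was met by 2 of the enzymes, Mvd and Lss. Neither showed allele-specific expression (0 of 2, the study's kind of paired test over embryos with Bonferroni adjustment), where 19.1% of 9084 genes did. At an unadjusted p under 0.05 there were also 0 of the 2, beside 57.7% of these genes. Over F1 and heterozygous N2 embryos the pooled B6 fraction was 0.489 in Mvd (20580 votes) and 0.503 in Lss (8336 votes). In the 16 F1 embryos Mvd had a mean fraction of 0.489 ± 0.014 (0.46 to 0.516), below 0.5 in 13, with a p of 0.008 in an exact sign-flip permutation test. Lss had 0.513 ± 0.0296 (exact p of 0.109) and Sqle 0.483 ± 0.0524 (exact p of 0.218). The Mvd shift was 0.011 from equal expression and small beside the 0.45 to 0.55 window within which no call was made.

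Dhcr7 leaned to the B6 allele in the F1 embryos. The fraction was 0.647, 0.636 and 0.524 in B6xCast litter 3, 0.577, 0.467, 0.606, 0.66 and 0.642 in B6xCast litter 5, 0.632, 0.553, 0.57 and 0.612 in CastxB6 litter 1 and 0.717, 0.606, 0.633 and 0.76 in CastxB6 litter 2. It was above 0.5 in 15 of 16 embryos and did not separate the crosses, at a mean of 0.615 ± 0.0703 (exact sign-flip permutation test over embryos, p of 9.16e-05, not adjusted over genes). This test was chosen after seeing the data, and votes were few, 25 to 127 an embryo and 1112 in all, with a pooled fraction of 0.609 (95% exact binomial interval 0.58 to 0.639, counting error only). Heterozygous N2 embryos gave only 26.97 votes, with a fraction of 0.482 (0.287 to 0.681), in which a lean of that size was not detectable. The difference between the crosses was -0.0404 in Dhcr7 and -0.011 to -0.0369 in Mvd, Sqle and Lss, B6xCast minus CastxB6, with exact permutation p of 0.0987 to 0.268.

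**Figure D3:**
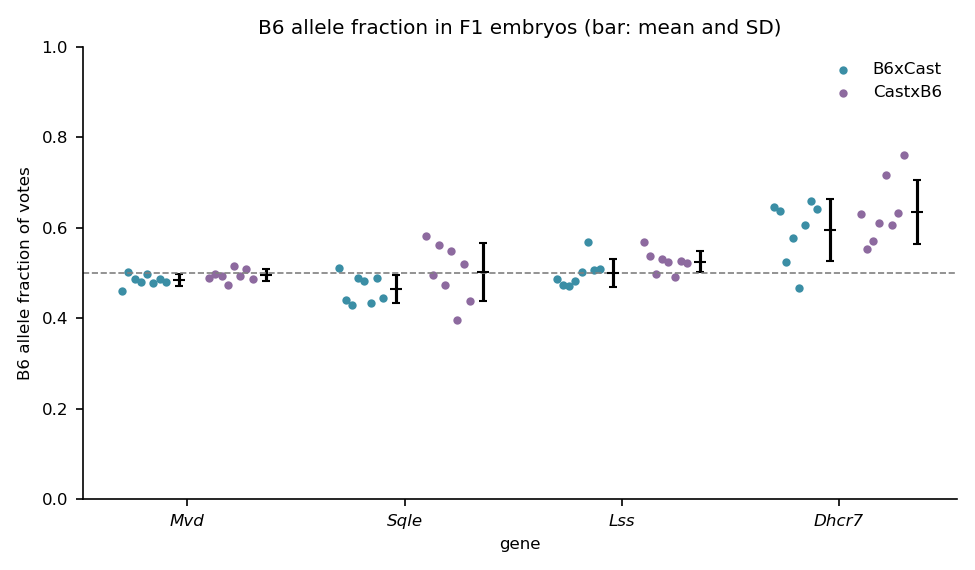
B6 allele fraction (0 to 1, dashed line at equal expression, 0.5) of Mvd, Sqle, Lss and Dhcr7 in each F1 embryo (points, coloured by cross), with the mean and SD of each cross as a bar. Dhcr7 lay above 0.5 in 15 of 16 embryos, and Mvd stayed between 0.46 and 0.516.

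Fdps votes went the other way: 149 F1 votes had a B6 fraction of 0.0403 (95% exact binomial interval 0.0149 to 0.0856), in a gene with close copies elsewhere in the genome and 2 to 19 votes an embryo. Fdft1 had 12 F1 votes and Idi1 had 0, too few to read. Parent-of-origin expression was called in 0 of the 5 enzymes tested, beside 0.405% of 11598 genes. In both crosses 3 of the 5 had an unadjusted binomial p under 0.05, beside 40.6% of all genes tested. Of these, Fdps leaned to Cast and Dhcr7 to B6 in both crosses. For Sqle the pooled fraction was 0.464 in B6xCast and 0.527 in CastxB6, where 1 embryo gave 534 of the 1413 votes. Its means over embryos were 0.465 and 0.502, with an exact permutation p of 0.165. The allele fraction had a rho with somite number of 0.10 in Mvd (adjusted p of 0.912, 50 heterozygous embryos) and -0.18 in Lss (0.795, 48 embryos). So 0 of 2 passed, beside 0.299% of 3342 genes, and 0 of 2 had an unadjusted p under 0.05, beside 8.89%.

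In N2 embryos the gene's own genotype was compared, heterozygous against homozygous B6. Fdps was lower in heterozygous embryos and was the only one of the 6 enzymes past the test (rank-sum test on residuals after lane, sex, somite number and 15 principal components, Benjamini-Hochberg adjusted p under 0.01), which called 27.8% of 9733 genes. Fdps was 42.82 ± 29.23 RPM in 77 heterozygous embryos (9.985, 35.62, 164.1) and 63.93 ± 39.65 RPM in 77 homozygous embryos (6.293, 53.27, 252.5). The ranges overlapped widely, but heterozygous embryos were lower in 12 of 14 lanes. The same held in both sets of lanes: 36.49 ± 21.34 against 57.24 ± 32.69 RPM in lanes A to I and 51.25 ± 35.9 against 79.64 ± 49.9 RPM in lanes J to N. The adjusted difference was -0.33 ± 0.06 in log2 (rank-sum test over all genes, adjusted p of 8.57e-07), -0.29 ± 0.08 (0.00517) under B6 mothers and -0.23 ± 0.07 (0.0354, not called) under F1 mothers. Because reads shared with near copies were discarded, by edit distance in both genomes, the Fdps value also depends on how each allele differs from those copies, which was not tested.

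Dhcr7 was 66.24 ± 21.12 RPM in 78 heterozygous embryos (12.68, 65.3, 116.6) and 79.48 ± 23.42 RPM in 76 homozygous embryos (23.32, 76.9, 135.3), lower in 9 of 13 lanes. In lanes J to N the means were 50.82 ± 14.95 and 69.76 ± 25.93 RPM, and in lanes A to I they were 77.55 ± 17.58 and 83.69 ± 21.14 RPM. The adjusted difference was -0.10 ± 0.03 with an adjusted p of 0.0103, just above the threshold, in the rank-sum test over all genes, and Dhcr7 passed with 5 principal components (-0.19 ± 0.05, 0.00238) or with no covariates (-0.29 ± 0.08, 0.00381). It did not pass with the covariates but no principal components (-0.19 ± 0.06, 0.0101), under B6 mothers (-0.09 ± 0.04, 0.273) or under F1 mothers (-0.06 ± 0.04, 0.264). Heterozygous embryos had the lower Dhcr7 level, and in the F1 embryos the Cast allele had the smaller share of Dhcr7 votes. Votes of heterozygous N2 embryos were too few to show such a lean. For Fdps level and votes went opposite ways. It was lower in heterozygous embryos, yet the B6 fraction of its 149 F1 votes was 0.0403. For Mvd, Fdft1, Sqle and Lss the difference was 0.02, -0.01, -0.07 and 0.04, with adjusted p of 0.464 to 0.918 in the same test. Of 27 other pathway genes 6 passed, led by Pmvk (-0.66 ± 0.04, 1.75e-20), the enzyme just before Mvd, whose B6 allele also took 0.866 of its votes.

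**Figure D4:**
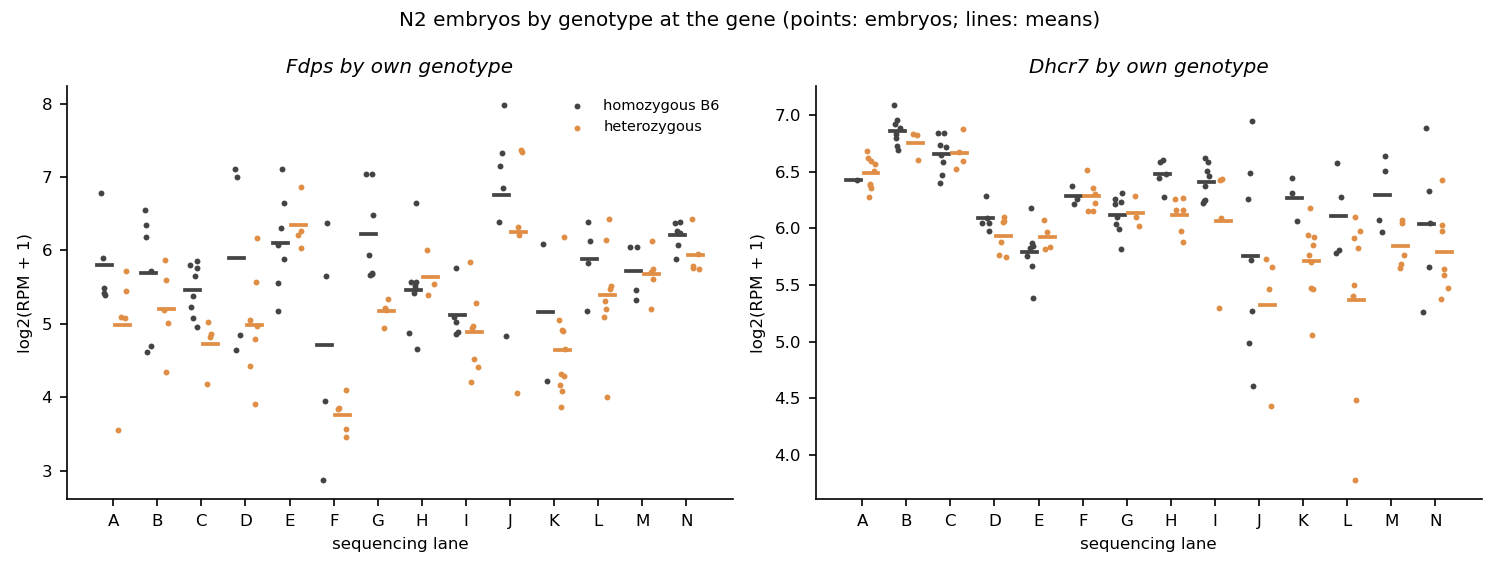
Fdps and Dhcr7, as log2(RPM + 1), in N2 embryos (points) by sequencing lane, black for homozygous B6 and orange for heterozygous at the gene itself, with lane means as lines (axes do not start at 0). Heterozygous embryos were lower in 12 of 14 lanes for Fdps and 9 of 13 for Dhcr7, and over all lanes Fdps had means of 42.82 and 63.93 RPM and Dhcr7 of 66.24 and 79.48 RPM, heterozygous first.

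Every gene was also tested against 2354 regions of constant genotype along the autosomes, and 22% of the 9733 genes had a called region, Fdps alone among the 6 enzymes (adjusted p under 0.01 over 22911482 pairs of gene and region). Its 68 called regions were on its own chromosome, 3, the strongest running from Notch2 to Man1a2 over 20 genes (-0.34 ± 0.06 in heterozygous embryos, adjusted p of 1.68e-06), as neighbouring regions are inherited together. Without principal components no region passed for Fdps (smallest adjusted p of 0.0705). For the other 5, the smallest adjusted p was 0.15 (Dhcr7, on its own chromosome 7).

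The enzymes did not vary as a block across embryos. Over the 15 pairs of the 6 enzymes the median Spearman's rho in 154 N2 embryos was -0.03, from -0.45 (Mvd and Lss) to 0.51 (Mvd and Fdft1), beside 0.06 over all pairs of genes. These are descriptions, since the pairs share libraries and lanes. With lane taken out of the ranks the median was 0.07 (all pairs of genes, 0.04), and in the 16 F1 embryos it was 0.09 (0.06). Mvd and Fdft1 were the most alike pair in each of these, at 0.57 with lane taken out and 0.80 in F1 embryos. Fdps followed Mvd, at 0.44 with lane taken out, and Lss and Mvd ran against each other, at -0.21.

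In residuals of log2(RPM + 1) after lane, Mvd and Fdft1 correlated with Mvk, the kinase that makes phosphomevalonate (0.605 and 0.71), and Mvd with Acat2, which starts the pathway, at -0.47. Sqle went with Nsdhl (0.41) and Sc4mol (0.34), and Lss with Sc5d (0.40), while Sqle and Lss, consecutive steps, were at 0.20. The 3′ GC content was 58.8% in Mvd, 51% in Fdft1 and 58% in Mvk, against 42.2% in Sqle, 41.4% in Nsdhl, 41.2% in Lss and 38.6% in Sc5d, and its part in these correlations was not tested. The 10 genes whose profile was most like the mean standardised profile of the measured enzymes over 154 embryos were Ccdc123 (rho of 0.58), Ipo9 (0.58), Mms19, Lrrc59, Ppp2r5c, Bysl, Grwd1, Pbrm1, Snx17 and Msx1 (0.49). With Idi1, which is under the minimum level, left out of the profile, only Ccdc123, Grwd1, Bysl, Mms19 and Ipo9 stayed among the first 10. Ccdc123 had a rho of 0.71 with Mvd and 0.57 with Fdps but -0.11 with Sqle and 0.02 with Lss, whereas for Mms19 the highest rho was that with Lss (0.39).

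**Figure D5:**
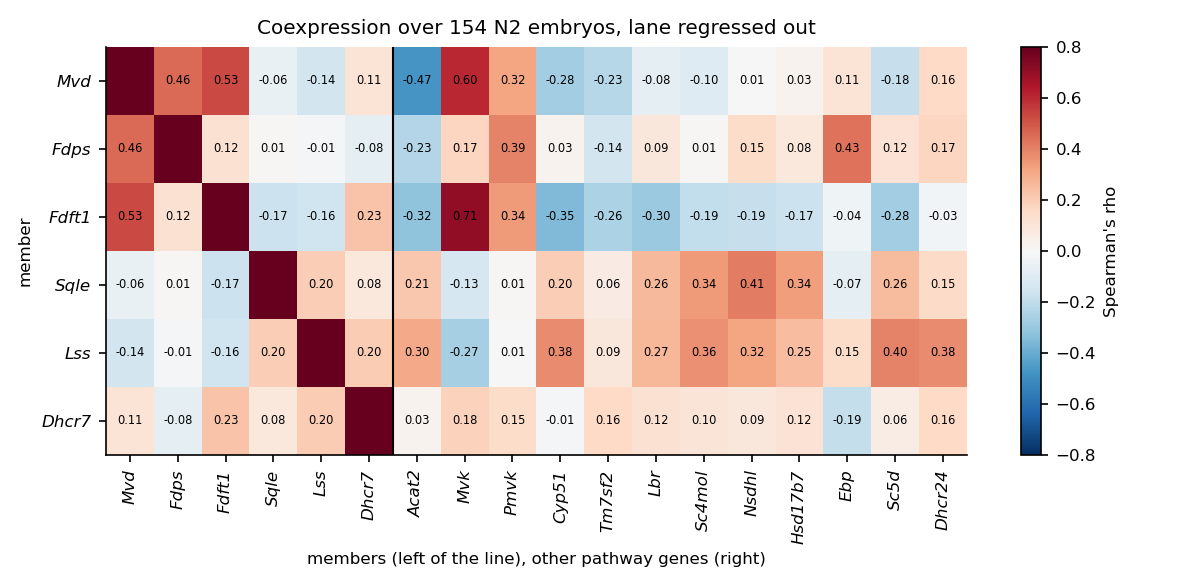
Spearman's correlation across 154 N2 embryos, in log2(RPM + 1) after lane was taken out, between the measured enzymes and the other pathway genes (colours from -0.8 to 0.8). Mvd and Fdft1 stood at 0.53 and Sqle and Nsdhl at 0.41.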

How the data were processed

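The deposited files hold raw read counts per RefSeq gene, which the authors made with Bowtie2 on mm9 and an in silico Cast genome, dropping reads with a second placement within an edit distance of 3. The deposited allele votes are estimated counts of reads for each allele, and the authors' genotype calls are coded as a score per gene and embryo. F1 runs (2 per embryo) were summed. RPM used column totals, and logs used log2(RPM + 1). Embryos were grouped by the labels, and 8 N2 columns with no group and 6 without genotypes were left out.

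Tests were of the study's kinds: Mann-Whitney U and Spearman's correlation per gene with a mean of at least 5 RPM, paired t-tests and binomial tests of votes (at least 20), and rank-sum tests of genotype, in which 15 principal components replaced hidden factors and Benjamini-Hochberg adjustment replaced permutation. The study's exclusion, for genotype tests, of genes with many discarded reads or retrotransposed copies was not applied, which bears on Fdps. F1 crosses and interactions used edgeR 4.0.16 (quasi-likelihood, TMM), with limma 3.58.1 and DESeq2 1.42.0 as alternatives, in R 4.3.3, and scipy 1.17.1 served the rest. Permutation tests drew 100000 resamples or were exact. Embryos of a litter share a mother and mostly a lane, so p-values over embryos measure the spread between embryos only.

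The enzymes, the 5 pathway lists (37 genes), the marker lists and the tests were chosen with earlier results of these data known. All measured enzymes are named, and of the pathway genes up to 6 per comparison that passed, by smallest p, less those not reported here; other pathway genes are given as examples chosen after their values were seen. The alternatives by sets of lanes and the sign-flip test were chosen after seeing the data. The steps were tested on simulated data. Results for some pathway genes are not reported here. Marker sums per embryo, over N2 embryos of both mothers, were 145.9 to 2618 RPM for fetal liver, 25654 to 170557 for erythroid cells, 430.5 to 2149 for neurons, 392.1 to 1130 for muscle, 0 to 5.153 for placenta and 0 to 27.35 for steroid-making cells.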

Additional observations from a re-analysis of the deposited data

Results flagged for a closer look

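Of 35 groups of 4 to 10 F1 embryos, 4 held an embryo far from the rest, where chance alone marks about 5% of groups. Sqle reached 27.3 RPM in a CastxB6 embryo of litter 1, against 20 RPM in the next CastxB6 embryo and 16.9 RPM in the next of its litter. Lss reached 47.3 RPM in a B6xCast embryo, against 38.8 RPM in the next, and its lowest value in B6xCast litter 5 was 35 RPM, against 38.1 RPM in the next.

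Between mothers, the slope on somite number differed by -0.162 in log2 per somite in Fdps and by 0.362 in Sqle (F1 minus B6 mothers, edgeR interaction). The difference between mothers changed with the flowcell by -0.48 in Mvd and -0.909 in Fdps in log2. With lanes as a random block none of the 4 passed (limma voom), and lane, mother and flowcell cannot be told apart for most embryos.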

How the results depend on the processing

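Most values of single enzymes kept their direction and their side of the threshold: 252 did, 47 changed sign on the same side of it, 20 came past it, 14 no longer did and 2 reversed. For the mother, 2 enzymes in place of 0 were called under Benjamini-Hochberg adjustment, edgeR, DESeq2 and edgeR with somite number (with 3073, 2468, 2716 and 2973 of all 9733 genes, in place of 490), and over embryos in place of litters 2 passed, with TMM scaling 1. Over all genes the 490 calls for the mother became 1 with lanes as a random block and 0 over litter or lane means. For somite number the 1 call became 0 with lane regressed out and 0 over litter means (1151 and 174 of all 10007 genes, in place of 2206). It became 2 in lanes A to I alone (2154 of all genes) and 2 with no minimum level (2362 of 18688). The correlation of Sqle turned to 0.356 in embryos of F1 mothers. For the F1 crosses the 1 call became 0 without B6xCast litter 3 and 0 with somite number as covariate (1889 and 234 of all 9728 genes, in place of 2814). It became 2 without CastxB6 litter 1, 2 with DESeq2 and 2 with upper quartile scaling (1466, 3247 and 2786 of all genes). It became 3 without CastxB6 litter 2 (4504 of all genes), where Fdps turned to -1.03. The slope by mother went from 2 to 0 and the mother by flowcell from 2 to 0 with lanes as a block, the latter to 0 also with no minimum level. For own genotype the 1 call became 2 with 5 principal components, 2 with no covariates and 0 under F1 mothers. Of all 9733 genes 2546, 1087 and 1267 were called there, in place of 2707. The scan of every locus fell from 1 to 0 without principal components (all genes, from 2137 to 1277). The median correlation of the enzymes moved from -0.027 to 0.073 with lane regressed out, 0.085 in F1 embryos, 0.073 on the first flowcell, 0.069 with TMM scaling, 0.12 in lanes A to I and 0.11 without lane J. The causes were not tested. The test of own genotype by edgeR with lane was not run. No paired analysis was possible because replicate numbers, given in accession order, only name embryos. Reads per N2 embryo were 0 to 307 for Sqle and 0 to 26 for Idi1.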

Other observations

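The 8 N2 embryos whose labels gave no group had 5 to 1210811 reads, and the median of each of the 7 measured enzymes over them was 0 RPM, with highest values of 1122 RPM for Mvd and 2.478 RPM for Sqle. In a library of few reads a single read makes a high RPM. The Mvd value cannot be read as a level without its read count, which is not given here.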
